A study of Mus musculus with 2 samples.

Results

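Sap130 peaks of embryonic mouse heart that lie far from the gene starts named in the peak table, and that come late in its order, are described here. The authors deposited 16697 peaks, called on 1 Sap130 chromatin immunoprecipitation (ChIP-seq) library against 1 input library, and named no gene within 10 kb for 1526 of them, 6 of which lie on mitochondrial DNA. Of the nuclear gene-distant peaks, 1257 stand after position 8348 of the deposited order and are called late here. The other 263 stand at or before that position and are called early. The late peaks with a gene named number 7086. The ChIP library came from the heart of B6 wild-type mouse embryos at age E13.5 with a rabbit antibody against Sap130. The input library, unenriched chromatin from heart of the same genotype, has the age label E13.6. No mutant or treated sample was analysed here, and the labels do not say how many hearts went into a library.

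Sap130 belongs to the Sin3-HDAC corepressor, a protein assembly that transcription factors bring to DNA and that removes acetyl groups from histone tails. Such complexes occupy gene starts and also enhancers, the distal elements that set when and where a gene is transcribed. In heart, enhancers of cardiac transcription factors and contractile genes often lie in introns or far from the gene start. Genes can also have several start sites, so a peak far from one annotated start may lie at another.

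The late gene-distant peaks were chosen by the table's gene column and order, and what the order was sorted by is not stated. With 1 library of each kind there was no replicate, and no test was run. Intervals are exact 95% intervals (Clopper-Pearson for shares, order statistics for medians) over peaks or genes of this list and cover counting error only. They treat adjacent peaks as separate, so they are too narrow where peaks are grouped. Merged within 1 kb, the late gene-distant peaks would number 1079. The columns used here hold no height, fold enrichment, p-value or read count per peak, so the depth behind a peak is unknown. Positions are printed as the table gives them, in the mm10 build (GRCm38), and may be off by 1 bp since their counting base is unknown. The tissue label could not be checked by marker expression, since the libraries hold genomic DNA.

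Some late gene-distant peaks lay on start sites that the table does not name. The sequences below are 300-base windows of RefSeq (assembly GRCm38.p6), from 250 bases before to 50 after a start site, that are overlapped by a late gene-distant peak. They are shown because they carry the main limit on the label gene-distant: 7 belong to genes of the heart lists and 1 to the non-coding RNA gene Gm34030 beside Hand2. Capitals mark each CpG dinucleotide, the pair of bases that is dense in the starts of many widely used genes. Each runs 5′ to 3′ on its gene's strand.
Fgf13: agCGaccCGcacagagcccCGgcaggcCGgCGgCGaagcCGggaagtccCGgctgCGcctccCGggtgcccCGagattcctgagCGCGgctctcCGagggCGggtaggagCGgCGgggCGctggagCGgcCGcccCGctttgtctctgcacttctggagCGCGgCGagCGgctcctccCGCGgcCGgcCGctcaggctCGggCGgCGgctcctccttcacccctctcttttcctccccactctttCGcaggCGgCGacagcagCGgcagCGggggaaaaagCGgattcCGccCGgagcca
Vgll4: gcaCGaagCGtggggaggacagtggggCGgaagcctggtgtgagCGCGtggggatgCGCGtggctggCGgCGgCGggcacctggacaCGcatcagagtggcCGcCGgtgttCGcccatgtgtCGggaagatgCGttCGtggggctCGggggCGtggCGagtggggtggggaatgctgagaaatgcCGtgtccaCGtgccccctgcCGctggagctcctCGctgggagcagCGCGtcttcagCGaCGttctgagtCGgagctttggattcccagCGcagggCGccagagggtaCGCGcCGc
Kcnh2: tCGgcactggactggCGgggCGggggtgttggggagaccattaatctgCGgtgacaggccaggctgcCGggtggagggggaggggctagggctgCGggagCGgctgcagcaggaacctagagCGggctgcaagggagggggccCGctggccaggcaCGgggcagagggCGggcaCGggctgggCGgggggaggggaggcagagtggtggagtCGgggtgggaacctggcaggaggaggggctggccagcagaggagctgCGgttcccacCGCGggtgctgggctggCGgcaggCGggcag
Palld: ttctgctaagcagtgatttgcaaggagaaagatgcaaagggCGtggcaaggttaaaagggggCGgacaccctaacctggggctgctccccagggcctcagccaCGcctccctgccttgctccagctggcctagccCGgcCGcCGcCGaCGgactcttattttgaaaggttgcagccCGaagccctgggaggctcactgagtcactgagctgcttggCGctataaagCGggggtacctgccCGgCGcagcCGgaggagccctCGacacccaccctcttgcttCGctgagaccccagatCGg
Esrrg: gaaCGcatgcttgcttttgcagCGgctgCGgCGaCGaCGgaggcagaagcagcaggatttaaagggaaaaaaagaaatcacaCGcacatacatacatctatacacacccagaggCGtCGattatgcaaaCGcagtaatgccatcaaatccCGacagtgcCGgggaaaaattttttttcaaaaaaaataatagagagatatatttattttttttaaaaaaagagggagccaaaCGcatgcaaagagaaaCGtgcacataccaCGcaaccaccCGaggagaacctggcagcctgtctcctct
Gm34030: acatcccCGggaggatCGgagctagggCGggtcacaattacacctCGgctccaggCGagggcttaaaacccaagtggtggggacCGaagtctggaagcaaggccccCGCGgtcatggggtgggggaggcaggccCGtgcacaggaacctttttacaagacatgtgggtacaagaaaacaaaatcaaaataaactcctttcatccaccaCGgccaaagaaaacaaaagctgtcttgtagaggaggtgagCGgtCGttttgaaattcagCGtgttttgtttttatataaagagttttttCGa
Foxp1: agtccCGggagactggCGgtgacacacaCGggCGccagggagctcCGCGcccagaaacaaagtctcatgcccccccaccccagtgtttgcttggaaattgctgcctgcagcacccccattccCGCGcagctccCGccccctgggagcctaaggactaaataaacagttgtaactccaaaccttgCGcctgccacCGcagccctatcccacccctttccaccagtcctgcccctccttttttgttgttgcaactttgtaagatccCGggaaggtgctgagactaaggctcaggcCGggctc
Cald1: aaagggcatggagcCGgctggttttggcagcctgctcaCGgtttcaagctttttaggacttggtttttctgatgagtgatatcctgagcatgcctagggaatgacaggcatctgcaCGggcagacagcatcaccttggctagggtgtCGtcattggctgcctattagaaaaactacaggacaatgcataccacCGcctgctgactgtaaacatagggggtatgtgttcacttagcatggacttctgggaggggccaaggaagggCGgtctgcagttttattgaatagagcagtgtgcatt

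The Fgf13 window (chrX:59567299-59567598, minus strand) held 40 CpG and the Vgll4 window (chr6:114969154-114969453, minus strand) 34, and each lay wholly inside its peak. Fgf13 encodes an intracellular fibroblast growth factor homologue that modulates sodium channels, and Vgll4 a cofactor that limits TEAD transcription factors. The windows of Palld (chr8:61591090-61591389, minus strand), Esrrg (chr1:187651508-187651807, plus strand), Gm34030 (chr8:57333690-57333989, minus strand) and Foxp1 (chr6:99520944-99521243, minus strand) held 17, 16, 14 and 13 CpG and also lay wholly inside their peaks. Palld encodes an actin-binding scaffold, Esrrg an orphan nuclear receptor that drives oxidative metabolism in cardiac muscle, and Foxp1 a forkhead transcription factor. Cald1, the gene of the actin-binding protein caldesmon, had 6 CpG in its window (chr6:34598254-34598553, plus strand), of which 286 bases lay in the peak. For Kcnh2, the gene of a potassium channel that repolarises the heart, the peak covered the last 41 bases of the printed window (chr5:24329542-24329841, minus strand), which held 19 CpG, and did not reach the start site. Most of the printed windows were thus covered whole.

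The comparison with RefSeq starts was chosen after the data were seen. It used 32817 distinct windows, none of them on chromosome 18, so it covers the 1200 late gene-distant peaks on other chromosomes. Of these, 145 overlapped a start window, 12.1% (10.3 to 14.1), against 92 of 259 early gene-distant peaks, 35.5% (29.7 to 41.7), and 2985 of 6889 late peaks with a gene named, 43.3%. With protein-coding genes alone the share of late gene-distant peaks was 7.08%. A start site of RefSeq lay within 10 kb of the midpoint of 393 late gene-distant peaks, 32.75% (30.1 to 35.5), and of 44.8% of the early ones. The label gene-distant thus holds for the starts the table names and not for all starts of RefSeq. Among the 145 peaks, 85 overlapped the window of a protein-coding gene and 60 only windows of non-coding genes, 101 contained the start site itself, and 25 lay at another start of the gene that was also their nearest named gene. Their median width was 437 bp, against 319 bp for the other late gene-distant peaks.

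The overlapped start windows were richer in CpG than RefSeq windows in general. The 166 windows had a median of 18 CpG and 61.8% G and C, against 7 CpG and 52.7% over all 32817. Windows overlapped by early gene-distant or gene-named peaks were not measured, so this richness is not shown to be particular to the late gene-distant peaks. Letters were searched on both strands for 3 motifs, none of which contains another. The GC box core CCGCCC, bound by Sp factors, was found in 59.6% of the overlapped windows and 35.6% of all. The GATA box GATAA was found in 14.5% against 25.4%, and the TEAD core CATTCC in 16.9% against 14.7%. A match describes the letters only, and a GC box is itself made of G and C, so its share moves with the base composition. The same holds for GATAA, which is mostly A and T. Overlapping windows of the same gene were counted separately, among them those of Gm34620 and Gm4718, all with the TEAD core.

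**Figure D1:**
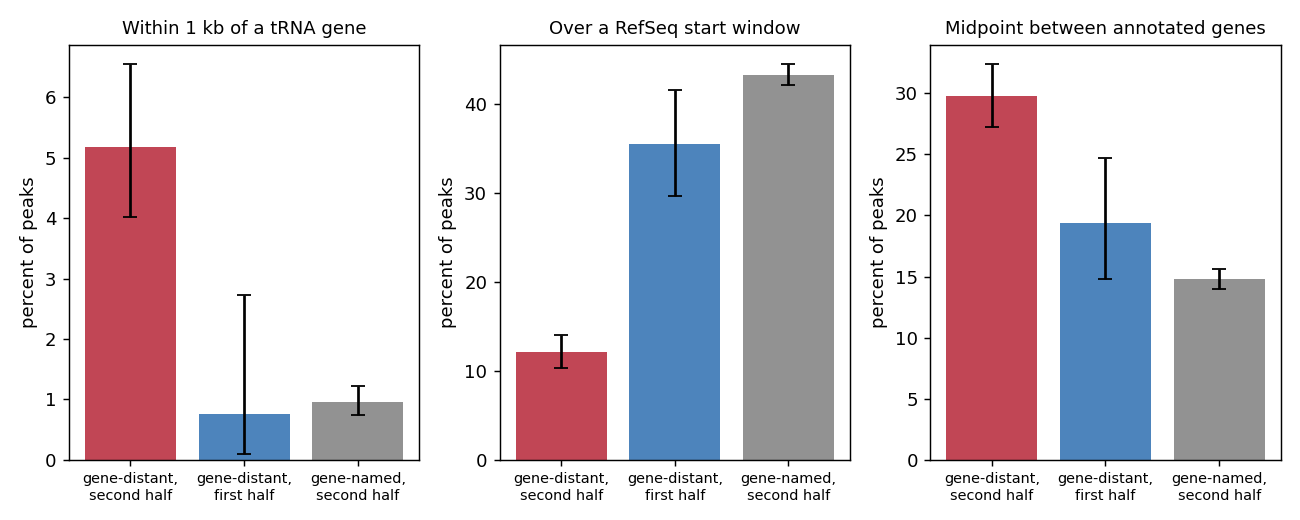
Percent of peaks (vertical axes) within 1 kb of a tRNA gene, over a RefSeq start window, and with the midpoint between annotated genes, for late gene-distant, early gene-distant and late gene-named peaks; bars start at 0 and lines are exact 95% intervals over peaks. The late gene-distant peaks are highest for tRNA genes (5.17%) and for positions between genes (29.8%), and lowest for start windows (12.1%).

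The late gene-distant peaks were narrow. Their median width was 325 bp (316 to 338), with quartiles of 249 and 480 bp and a range of 207 to 2829 bp. The early gene-distant peaks had a median of 826 bp (761 to 909), and the late peaks with a gene named one of 406 bp (400 to 413). Widths under 300 bp made up 42.9% of the late gene-distant peaks, 0.760% of the early ones and 29.99% of the late named ones. At least 1000 bp were spanned by 48 late gene-distant peaks, 3.82%, against 97 early ones, 36.9%. Width and order come from the same peak calling, so these values describe the choice of peaks and support nothing further.

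Along the late part of the order, gene-distant peaks were narrower toward the end, and their share was lowest at the beginning. From positions 8349 to 10435, 194 of 2087 peaks were gene-distant, 9.30%, with a median width of 646 bp, and the named peaks of the same stretch had one of 629 bp. From 10436 to 12522 the share was 13.3% and the medians 399 and 462 bp. From 12523 to 14610 the share was 18.96% with medians of 295 and 344.5 bp, and from 14611 to 16697 it was 18.7% with medians of 255.5 and 266 bp. Gene-distant and named peaks of the same stretch thus differed far less in width than early and late peaks did. By chromosome, the share of late peaks that were gene-distant ran between 9.16% on the X chromosome and 22.4% on chromosome 18.

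**Figure D2:**
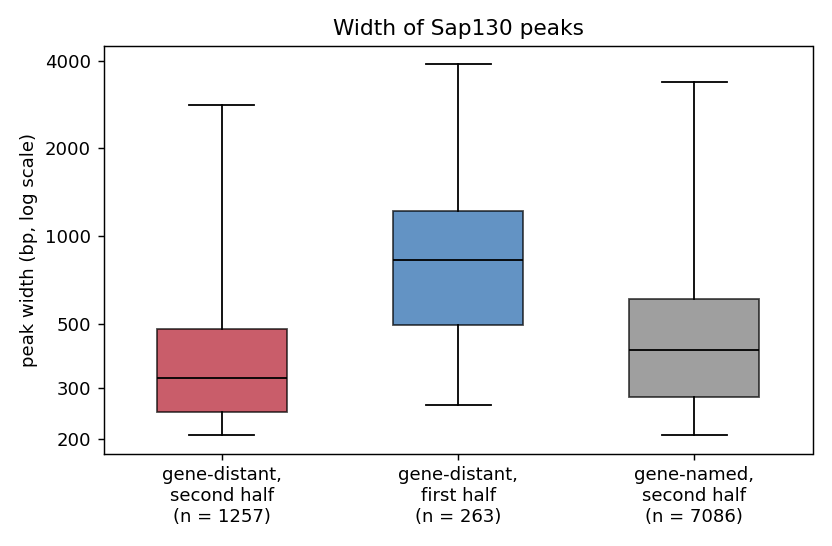
Peak width in bp (vertical axis, log scale) of late gene-distant, early gene-distant and late gene-named peaks; boxes are quartiles with the median as a line, whiskers the lowest and highest value. The late gene-distant peaks have the lowest median, 325 bp, and the early gene-distant ones the highest, 826 bp.

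The 3 gene-distant peaks on each side of the order limit were between 309 and 1354 bp wide. Just inside stood a peak of 309 bp at position 8352, 33577.5 bp upstream of the start of Id4, an inhibitor of helix-loop-helix factors. The next stood at 8381, a peak of 1354 bp inside Celf2, an RNA-binding regulator of splicing, and 208910 bp downstream of the named start. That peak also contained another RefSeq start of Celf2. The last of the 3, of 1114 bp, stood at 8383, at -60205 bp from the start of 1810026B05Rik, where a negative value lies upstream. Just outside stood peaks of 486 bp at 8314, upstream of the neuronal Cdk5 activator gene Cdk5r2, of 992 bp at 8316, 12392 bp downstream of the start of the immediate early gene Fos, and of 378 bp at 8338, inside the cadherin gene Cdh23.

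The 10 widest late gene-distant peaks fell mostly inside protein-coding genes. The widest, 2829 bp (chromosome 8, 44934839 to 44937668), lay inside Fat1, a giant protocadherin gene, and its nearest named gene was Cyp4v3. The next, 2658 bp (chromosome 8, 45658274 to 45660932), lay inside Sorbs2, the gene of an adaptor of the Z-disc and of cell junctions, upstream of Pdlim3, the gene of another Z-disc protein. A peak of 2115 bp lay inside Mef2c (chromosome 13, 83523815 to 83525930), the gene of a MADS-box factor of heart and muscle development. The table names no peak for Mef2c, so the nearest named start was that of C130071C03Rik, a non-coding gene 203233.5 bp away. A RefSeq start of Mef2c lay 1216.5 bp from the midpoint of the peak. A peak of 1783 bp (chromosome 2, 17458397 to 17460180) lay in intron 4 of a Nebl transcript of 7 exons, the gene of the thin filament protein nebulette. Another RefSeq start of Nebl lay 3567.5 bp from the midpoint of that peak.

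The remaining 6 ranged between 1635 and 1767 bp. They lay inside Dpysl3, Ppargc1a (nearest named gene Dhx15), Cracd (nearest named gene Aasdh) and Dab2ip, and beside tRNA genes near Zfp213 and Irgm1. Ppargc1a encodes PGC-1alpha, a coactivator of mitochondrial biogenesis. Its peak of 1680 bp (chromosome 5, 52114514 to 52116194) was 1 of 4 late gene-distant peaks with the midpoint inside the gene, the others being 238, 400 and 548 bp wide. The peak of 1680 bp held the upstream end of the Ppargc1a span of RefSeq, at 52115853. The Dab2ip peak, 1641 bp wide, contained another start of that gene. The Zfp213 peak, of 1729 bp, lay by 2 tRNA genes for arginine and the Irgm1 peak, of 1635 bp, by 3 tRNA genes.

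Relative to annotated genes, the midpoint of 728 late gene-distant peaks, 57.9% (55.1 to 60.7), lay inside a protein-coding gene, of 155, 12.3%, inside another annotated gene, and of 374, 29.8% (27.2 to 32.4), between genes. Positions between genes were less frequent among the early gene-distant peaks, at 19.4% (14.8 to 24.7), and among the late named peaks, at 14.8%. For 399 of the late gene-distant peaks, the exons of a transcript named in the table spanned the midpoint, which lay in an intron for 336, 84.2%, and in an exon for 63, among them 35 in the last exon. The first intron held 87, 21.8%.

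Distances to the nearest start named elsewhere in the table had a median of 45219.5 bp (41546.5 to 49628.5), with quartiles of 22511 and 96270 bp, and the largest was 2009768.5 bp. The early gene-distant peaks had a median of 50455.5 bp (39629 to 61412), and the intervals overlap. Of the late gene-distant peaks, 365 lay within 25 kb of a named start, 668 within 50 kb and 955 within 100 kb, 75.97%. Downstream of that start lay 701, 55.8% (52.97 to 58.5), against 54.0% (47.8 to 60.1) of the early ones. The nearest start belonged to 918 genes, of which 706 had 1 such peak, 149 had 2, and 33 had 4 or more.

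A small share of these peaks lay at tRNA genes. These short genes, transcribed by RNA polymerase III from promoters inside the gene, encode the adaptors of translation and often lie in groups between protein-coding genes. Since the table names only other genes, a peak on an isolated tRNA gene counts as gene-distant. Of the late gene-distant peaks, 65 lay within 1 kb of 1 or more of the 408 nuclear tRNA genes of RefSeq, 5.17% (4.01 to 6.54), against 2 of the early ones, 0.760% (0.0922 to 2.72), and 68 of the late named ones, 0.960% (0.746 to 1.22). The share of late gene-distant peaks that overlapped a tRNA gene was 2.39%. This comparison was chosen after the data were seen. Shares near other short genes were smaller, with 0 peaks near snoRNA genes and 0 near rRNA genes, each with an upper bound of 0.293%. Near snRNA genes lay 9, 0.716% (0.328 to 1.35), and near miRNA genes 3, 0.239%. For snRNA genes this too was above the late named peaks, at 0.155% (0.0775 to 0.278), with 0.380% for the early ones. The late named peaks had more near miRNA genes, 0.960%, and near snoRNA genes, 0.212%. The table itself names miRNA and snoRNA genes, among them Mir1904 and Snord61. Peaks beside such genes can thus be labelled gene-named, so these contrasts follow at least in part from the label and support nothing further.

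The tRNA genes near these peaks numbered 75, 18.4% of all, and 181, 44.4%, had a peak of any class within 1 kb. They were spread over many amino acids, with 8 of 25 leucine genes, 8 of 24 arginine genes and 6 of 16 proline genes, and 0 of the 56 cysteine genes. A tRNA gene was overlapped by 30 of the 65 peaks, and the other 35 lay beside one, at a median gap of 104 bp and at most 933 bp. The median width near tRNA genes was 494 bp (361 to 669), against 321 bp for the other late gene-distant peaks. Of the 65, 53 lay between genes, 21 on chromosome 13 and 8 on chromosome 1, and 33 lay near 2 or more tRNA genes. Many tRNA genes of the same kind are near-identical copies, and the sources used here do not say how reads matching several places were counted. The part of such reads in these peaks was not tested.

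The late gene-distant peaks were often grouped. With neighbouring midpoints at most 50 kb apart, 480 lay in clusters of 2 or more, 38.2% (35.5 to 40.9), against 27 of the early ones, 10.3% (6.88 to 14.6). There are more late than early gene-distant peaks, so closer neighbours come with the number alone, and the part of density in this difference was not tested. The share of clustered late gene-distant peaks was 20.6% among those up to position 12523 and 74.5% with any peak as neighbour. The 185 clusters comprised 127 pairs, 30 of 3 peaks and 28 of 4 or more, and their median span was 2294 bp. Most were short, 106 spanning under 5 kb, and in 167, 90.3%, all peaks shared 1 nearest named gene. Short clusters far from named starts share 1 largely by construction. A late gene-distant peak had another within 2 kb in 325 cases, 25.9%, and the early ones one of their own class in 17, 6.46%. The median width was 338 bp for clustered peaks and 319 bp for single ones. Peaks near tRNA genes were clustered in 54 of 65 cases, 83.1%, against 426 of the other 1192, 35.7%.

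**Figure D3:**
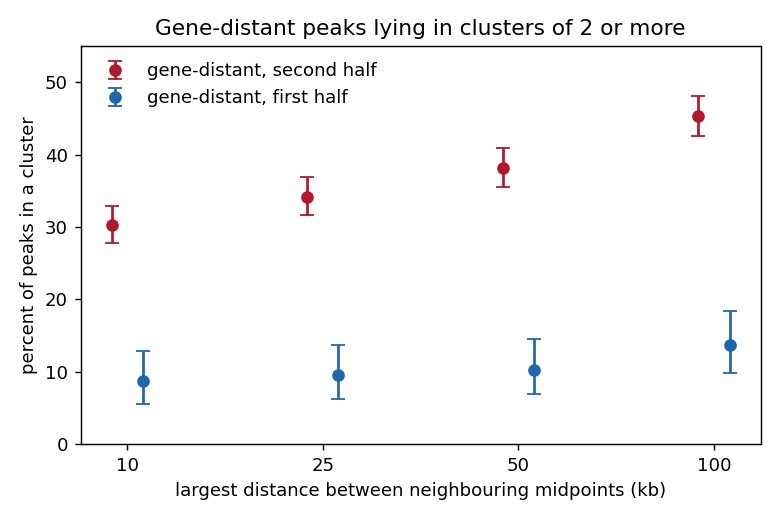
Percent of peaks in clusters of 2 or more (vertical axis) by the largest distance allowed between neighbouring midpoints in kb (horizontal axis, in even steps), for late and early gene-distant peaks; lines are exact 95% intervals over peaks. The late peaks run between 30.3% at 10 kb and 45.3% at 100 kb, and lie above the early peaks at each distance.

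Of the 6 clusters with 6 or more peaks, those by Trim27 and by Osbp had a tRNA gene within 1 kb of every peak, and those by Cxxc5, Bcor, Hand2 and Actg1 of none. A cluster of 9 peaks of 210 to 760 bp spanned 90754 bp, had no tRNA gene within 1 kb and lay by Cxxc5 (chromosome 18, 35848099 to 35938853), the gene of a CXXC zinc finger protein that acts in Wnt and BMP signalling. Cxxc5 was also the gene with the most late gene-distant peaks, 10. A second cluster of 9 lay by Trim27 and Zscan12 (chromosome 13, 21159183 to 21279696), where all 9 peaks, of 344 to 1362 bp, lay within 1 kb of a tRNA gene, 11 such genes in all. A cluster of 7 peaks lay inside Bcor (chromosome X, 12091009 to 12136940). A cluster of 6 by Osbp, an oxysterol-binding protein gene (chromosome 19, 12005405 to 12013045), had a tRNA gene within 1 kb of each peak, 6 such genes in all. The cluster of 6 by Hand2 and that by Actg1 and Bahcc1 (chromosome 11, 120262243 to 120316797) had no tRNA gene.

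Of the genes with most late gene-distant peaks, 7 had 6 or more and 10 tied at 5, of which the 3 with the nearest peaks are given. Peaks near tRNA genes made up all 8 of 1700009P17Rik, all 6 of Trim27, all 6 of Osbp and all 5 of C230035I16Rik. The others were Cxxc5 with 10, Mir1904 with 7, Hand2 and 2900008C10Rik with 6 each, and Gata4 and Bcor with 5 each, none of them near a tRNA gene. Of the Mir1904 peaks, 1 lay within 100 kb of its start and the farthest was 643260 bp away. The start of 2900008C10Rik lies inside the span of Bcor, and its 6 peaks all belonged to the Bcor cluster. Of the 28 clusters with 4 or more peaks, 7 held a peak near a tRNA gene.

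Heart genes were examined through 7 lists of 450 symbols, of which 362 are named in the table. Of these, 41 were the nearest named gene of 1 or more late gene-distant peaks within 100 kb, 11.3% (8.25 to 15.1), beside a background of 6.38% over all 11497 genes named in the table. The lists of neuronal, liver, blood, skeletal muscle, epithelial and germ line genes had 8 of 45 named genes, 17.8% (8.0 to 32.1), an interval that covers the share of the heart lists. Inside the gene span, 40 of the 450 heart genes held the midpoint of a late gene-distant peak, 8.89% (6.43 to 11.9), beside 2.53% over 21900 protein-coding genes and 5 of 209 genes of the other lists, 2.39%. Heart genes were longer, with a median length of 40378 bp, against 17146 bp over all protein-coding genes and 16445 bp in the other lists. A longer gene can hold more peaks, and the part of length was not tested.

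Counted over peaks, 64 of the late gene-distant peaks had a heart gene as their nearest named gene within 100 kb, 5.09% (3.94 to 6.46), against 6 of the early ones, 2.28% (0.842 to 4.90), while the heart lists hold 3.15% of the genes named in the table. The share of late gene-distant peaks was 3.34% within 50 kb, 8.11% with no limit and 9.15% by the nearest protein-coding gene of RefSeq. The late peaks with a gene named carried the name of a heart gene in 564 cases, 7.96%. Inside a heart gene lay 80 late gene-distant peaks, 6.36% (5.08 to 7.86), 5 early ones, 1.90% (0.620 to 4.38), and 492 late named ones, 6.94% (6.36 to 7.56), an interval that overlaps that of the late gene-distant peaks. Next to or inside a heart gene lay 117 in all, at 61 genes, and 36 of those inside had the start of another gene as the nearest named one. Their median width of 338 bp was close to the 322.5 bp of the rest. Of the 41 nearest heart genes, 38 also had a peak within 1 kb of their start, and Zfpm1 and Tbx5 were among those that did not.

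**Figure D4:**
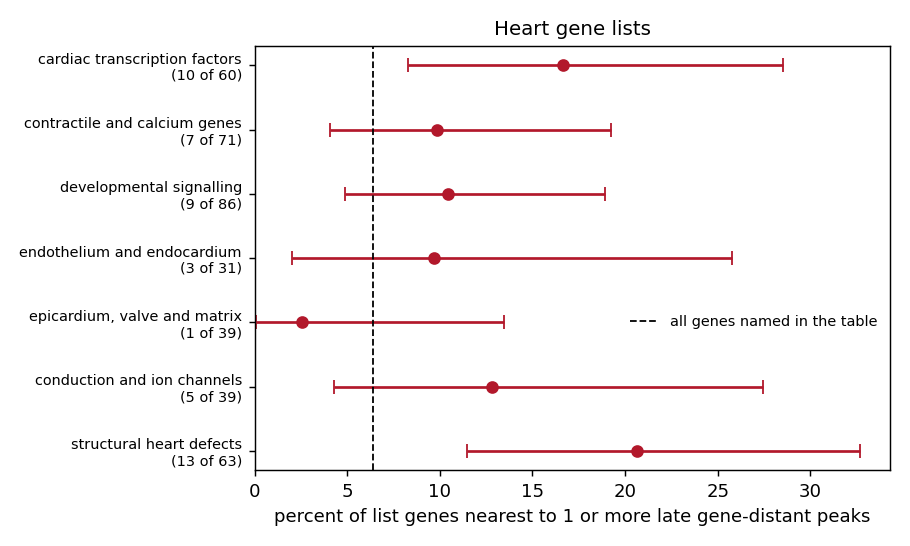
Percent of the genes of each heart list named in the table that are nearest to 1 or more late gene-distant peaks within 100 kb (horizontal axis), with exact 95% intervals over genes; the dashed line is the 6.38% of all named genes. Genes of structural heart defects (13 of 63) and cardiac transcription factors (10 of 60) lie above the line with their intervals, and those of the other 5 lists cover it.

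Cardiac transcription factors had 10 of 60 named genes nearest to a late gene-distant peak, 16.7% (8.29 to 28.5), with 21 peaks. Hand2, a basic helix-loop-helix factor of the right ventricle and of the outflow tract, had 6 (chromosome 8, 57331866 to 57354312), all downstream of its start. They were centred 11006.5, 11626.5, 12565.5, 13454, 20124 and 33028.5 bp from it, with widths of 247, 333, 945, 334, 388 and 601 bp. The widest holds the start of Gm34030, whose window is printed above, and the table names 10 further peaks for Hand2 itself. Gata4, a zinc finger factor required for the heart tube and for septation, had 5 (chromosome 14). They were centred -93243.5, -23593, -22807, -10695.5 and 10820 bp from the start, where negative values lie upstream, with widths of 209, 328, 260, 497 and 380 bp. The last lay in intron 2, and all but the farthest lay inside the Gata4 span of RefSeq, which extends upstream of the start the table names.

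The other cardiac factors had 1 or 2 peaks each. Zfpm1, the gene of the Gata cofactor Fog1, had peaks of 653 and 215 bp centred 51619.5 and 12651.5 bp upstream, both inside Zfp469. Rxra, a retinoid X receptor gene of ventricular growth, had peaks of 207 bp in intron 1 and 321 bp in intron 2, centred 22486.5 and 63222.5 bp downstream. Tbx2, a T-box repressor of the atrioventricular canal, had a peak of 644 bp 11832 bp downstream, and Nr2f2, an atrial nuclear receptor gene, a peak of 313 bp 14252.5 bp downstream. Tbx5, a T-box factor of the atria and left ventricle, had a peak of 254 bp centred 30664 bp upstream of the start the table names. That peak lay inside the Tbx5 span of RefSeq. Esrrg and Casz1 had 1 intronic peak each, and the Esrrg peak of 815 bp contained the start printed above. The Casz1 peak was centred 1824.5 bp from a RefSeq start of that gene. Meis1, a homeobox gene outside the lists, was the nearest named gene of a cluster of 4 peaks of 215 to 635 bp (chromosome 11, 18876849 to 18879560) 139545.5 to 141801.5 bp from its start, beyond the 100 kb limit, and was picked after its values were seen. The peak of 238 bp in that cluster overlapped RefSeq start windows of the non-coding gene 8430419K02Rik but did not contain its start site.

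**Figure D5:**
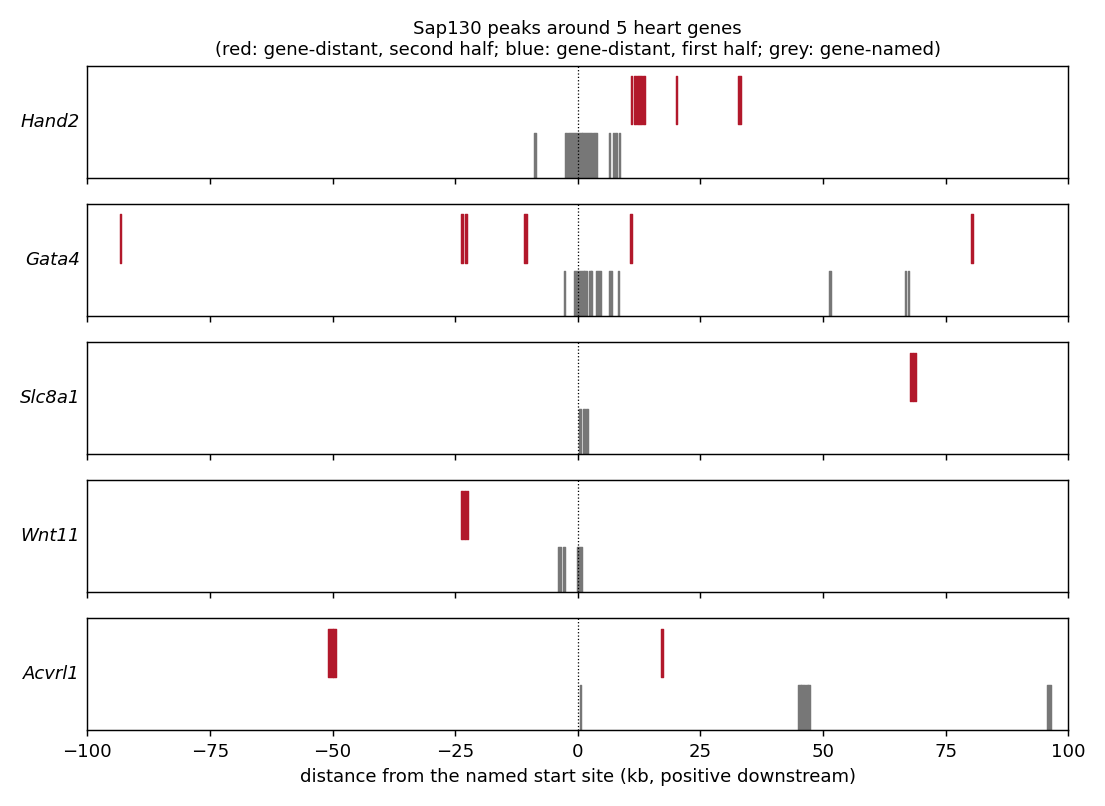
Sap130 peaks around Hand2, Gata4, Slc8a1, Wnt11 and Acvrl1, by distance in kb from the start site named in the table (horizontal axis, positive downstream); the upper row of each panel holds gene-distant peaks, late in red and early in blue, and the lower row gene-named peaks in grey, each at least as wide as a thin line. The late gene-distant peaks at Hand2 lie downstream, those at Wnt11 in 1 group upstream, and those at Slc8a1 in 1 group near 68 kb. The red peak near 80 kb at Gata4 has another gene as its nearest.

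Genes of developmental signalling had 9 of 86 named genes nearest to a late gene-distant peak, 10.5%, and endothelial and endocardial genes 3 of 31, 9.68%. Wnt11, a ligand of the non-canonical Wnt pathway in outflow tract development, had 3 peaks of 314, 339 and 250 bp centred 23659, 23021.5 and 22489 bp upstream (chromosome 7, 98815029 to 98816481). All 3 lay within 1 kb of the same 2 proline tRNA genes, so they belong to the tRNA group as well. Acvrl1, an endothelial receptor of BMP ligands, had peaks of 1017 and 460 bp centred 50498.5 and 49627 bp upstream and 1 of 328 bp centred 17199 bp downstream (chromosome 15). The widest of them lay inside Fignl2.

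Fgfr1, a fibroblast growth factor receptor gene, had peaks of 338 and 218 bp in intron 2, centred 24865 and 26255 bp downstream. Vgll4 had the peak of 1387 bp over its printed window, centred 47535.5 bp upstream of the start the table names, and a peak of 210 bp centred 60611 bp downstream. Notch1, a receptor of endocardial and valve signalling, had a peak of 213 bp centred 12672.5 bp upstream, and Smad7, an inhibitor of TGF-beta signalling, a peak of 998 bp centred 24337 bp upstream. Id4, Notch3, Smad6 and Smad2 had 1 peak each, centred at least 33577.5 bp away. Klf4, a zinc finger factor of endothelium and smooth muscle, had a peak of 242 bp centred 17517 bp downstream. Foxp1 held 5 late gene-distant peaks of 267 to 890 bp in its span, the widest over the printed window and with Eif4e3 as the nearest named gene. Among genes of epicardium, valve and matrix, 1 of 39 was nearest to such a peak, Prrx2, a homeobox gene with a peak of 211 bp in intron 1, centred 19775.5 bp downstream.

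Contractile and calcium genes had 7 of 71 named genes nearest to a late gene-distant peak, 9.86% (4.06 to 19.3). Slc8a1, the gene of the cardiac sodium-calcium exchanger, had 3 adjacent peaks of 335, 359 and 283 bp in intron 1, centred 67832.5, 68302.5 and 68812.5 bp downstream (chromosome 17, 81669422 to 81670711). Another, of 207 bp, lay in intron 2, 158195.5 bp downstream. Xirp1, the gene of a Z-disc and intercalated disc protein, had a peak of 850 bp centred 12128 bp downstream. Mylk3, the cardiac myosin light chain kinase gene, had a peak of 358 bp centred 14078 bp upstream of the start the table names. The Mylk3 peak lay inside the Mylk3 span of RefSeq, centred 1640 bp from a RefSeq start of that gene. Myl3, the gene of a ventricular myosin light chain, had a peak of 781 bp centred 17961.5 bp downstream. The peak of Trim55, the gene of a sarcomere-associated ubiquitin ligase, was 1031 bp wide, centred 15623.5 bp upstream, and lay within 1 kb of 4 tRNA genes. With the 3 of Wnt11 it made up the 4 of 64 peaks next to heart genes that lay near tRNA genes. Ldb3 and Lmod3 had 1 peak each, that of Lmod3 inside Frmd4b.

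Some genes held peaks whose nearest named start was that of another gene or over 100 kb away. Myl4, the gene of an atrial myosin light chain, held 5 peaks of 271, 239, 370, 259 and 547 bp (chromosome 11, 104571436 to 104579546). The table names no peak for Myl4, and the nearest named gene of all 5 was Cdc27, a cell cycle gene, whose start lay 20952.5 to 28653.5 bp away. Ttn, the gene of the giant sarcomere spring titin, held 3 adjacent peaks, of 636 and 820 bp in intron 68 and of 359 bp in intron 67. They were centred 130286 to 131897.5 bp from their nearest named start, that of Plekha3. Cald1 held 3 peaks of 806, 617 and 287 bp, the widest over its printed window, and Palld held 3 of 207 to 729 bp, of which the widest covered its printed window. The Cald1 peaks of 617 and 287 bp were centred 1088.5 and 1594.5 bp from a RefSeq start of that gene. The Palld peak of 296 bp contained another RefSeq start of Palld, and that of 207 bp was centred 523.5 bp from one.

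Genes of conduction and ion channels had 5 of 39 named genes nearest to a late gene-distant peak, 12.8% (4.30 to 27.4), each with 1 peak. Hcn4, the pacemaker channel gene, had a peak of 292 bp in intron 1, centred 18394 bp downstream. Kcnh2 had the peak of 234 bp in intron 5 that reaches into its printed window, centred 22138 bp downstream of the start the table names. Cacna2d2, an auxiliary calcium channel subunit gene, had a peak of 232 bp centred 21665 bp upstream. Cacna1h had a peak of 285 bp in intron 2, and Kcnj5 a peak of 229 bp upstream. Of the 5 peaks, all were narrower than the median of the late gene-distant peaks.

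Genes of structural heart defects had 13 of 63 named genes nearest to a late gene-distant peak, 20.6% (11.5 to 32.7), among them Hand2, Gata4 and other genes given above, since the lists share members. Bcor, the gene of a corepressor that binds BCL6, had 4 peaks within 100 kb. They were centred 11023.5 bp upstream and 73624.5, 74042 and 81415 bp downstream, with widths of 1133, 279, 390 and 256 bp (chromosome X). The first of these lay inside the Bcor span of RefSeq. The cluster of that peak held 6 more peaks of 221 to 962 bp whose nearest named start was that of 2900008C10Rik. Rbfox2, a splicing regulator gene, had peaks of 236 bp centred 59828 bp upstream and 356 bp centred 70892 bp downstream, in intron 1. Chd4, a chromatin remodeller gene, had a peak of 354 bp centred 14419 bp upstream, inside Lpar5. Chd7, another chromatin remodeller gene, had a peak of 842 bp centred 42314 bp upstream.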

How the data were processed

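Sap130 ChIP-seq was made from 1 heart library and 1 input library, per the labels' protocols with a kit for transcription factors. The authors deposited 1 table of peaks with a row number, start and end position and the gene named for each peak, per the file headers. The submitters' processing notes name Bowtie 1.1.2, MACS2 2.1.0.20140616 and the builds GRCm38 and mm10. Thresholds, duplicate handling, region filters, the sort key of the rows and the way genes were named are not stated in the sources used here. Each of them may affect the number, width and label of peaks.

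Gene-distant peaks are those with no gene in the table. Distances run between the peak midpoint and the start of the nearest transcript the table names for another peak. Gene spans, tRNA genes and 32851 start windows, of which 32817 are distinct, came from RefSeq (GRCm38.p6) tables. Calculations used Python 3.11.15, NumPy 2.4.6, SciPy 1.17.1, pandas 2.3.3 and matplotlib 3.10.9, and the distance, cluster and overlap functions were tested on simulated data. The members, the 7 heart lists and the 6 lists of other tissues were chosen with earlier results of these data known. Genes are named by rule: heart genes nearest to a late gene-distant peak within 100 kb (25 in full), nearest genes of the 10 widest peaks and of the 5 largest clusters, the 3 peaks on each side of the order limit, and the 10 genes with most peaks. Genes whose span or start window holds a peak are named beyond that rule and were chosen after their values were seen. A few genes that meet the rule are left out of the text. Alternatives were other order limits, linking distances, distance limits, neighbour sets and windows.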

Additional observations from a re-analysis of the deposited data

How the results depend on the processing

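Of 50 alternative values, 20 stayed within the counting interval or, for the number of peaks, within 1.5 times, and 30 moved. With positions after 12523 in place of 8348, the late gene-distant peaks numbered 785. The median width was 292 bp for positions after 11132, 274 bp after 12523, 485.5 bp up to 12523, and 315.5 bp without peaks near a tRNA gene or over a start window. The share in clusters was 30.3%, 34.2% and 45.3% at 10, 25 and 100 kb, 43.4% with any gene-distant and 74.5% with any peak as neighbour, 33.3% after 11132, 29.7% after 12523, 20.6% up to 12523 and 35.4% without peaks near tRNA genes. The share inside a gene, 70.2% by midpoint, was 72.9% by any base, 57.9% for protein-coding genes and 66.1% up to 12523. The median distance was 60709.5 bp to starts named early. The share next to a heart gene was 3.34% within 50 kb, 7.0% within 200 kb, 8.11% with no limit, 6.76% with the 2 nearest genes and 9.15% with the nearest gene of RefSeq. The tRNA share was 2.39% by overlap, 3.95% after 12523 and 7.20% up to 12523. The start-window share was 7.08% for protein-coding genes, 9.89% after 11132, 8.93% after 12523 and 17.3% up to 12523. The causes were not tested, other than that fewer peaks or wider limits change a share by construction. No paired analysis was possible because there is 1 ChIP and 1 input library. Depth limits all values, since no count per peak was used.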
